A study of Homo sapiens with 15 samples.

Results

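The genes described here are ESM1, GJA5, RIMS1, RIMS2, ABCC9, GALNTL6, SERTAD4 and KRTAP4-8, 8 of 58721 annotated genes, which were chosen by their measured fold change with guides, because their RNA was much lower in MelJuSo lines that hold guides against CD4. MelJuSo is a human melanoma cell line. The labels give 5 lines derived from it, with 3 libraries each (replicates A, B and C) and 15 libraries in all. The line called VP64 with guides holds 5xALFA-dCas12a-VP64, nanobody-VP64 and a cassette of guides against CD4, and the line called p65 with guides holds 5xALFA-dCas12a-VP64, nanobody-p65 and the same cassette. VP64 without guides and p65 without guides hold the same pairs of proteins and no such cassette. The line lacking an activation domain holds 5xALFA-dCas12a and the unfused nanobody and no guides, so it differs from the other lines without guides both in dCas12a and in the nanobody. Every condition is 1 line, so a property of a line and the effect of its vectors cannot be told apart. The labels do not say whether a line is a clone, or whether replicates were separate cultures or tubes of 1 divided cell suspension, so the p-values reflect only how these libraries vary, and that variation may be technical.

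In this system, nuclease-dead Cas12a (dCas12a) is led to DNA by a guide RNA and does not cut it. VP64, a viral activation domain, and p65, the activation domain of the RELA protein, recruit coactivators that raise transcription near the bound site. The ALFA tag repeats on dCas12a are bound by the nanobody, which brings in further activation domains. None of the 8 genes is the intended target. CD4 itself averaged 1895 ± 68.7 CPM (counts relative to library size; SD, n = 3) in VP64 with guides, against 8.83 ± 0.541 CPM in VP64 without guides. It averaged 2063 ± 115 CPM in p65 with guides and 10.6 ± 0.563 CPM in p65 without guides (SD, n = 3 each). Library totals ran from 15643706 to 23072513 expected counts.

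The 8 genes belong to unrelated families. ESM1 encodes endocan, a proteoglycan secreted mainly by endothelial cells. RIMS1 and RIMS2 encode RIM proteins, scaffolds of the presynaptic active zone that bind RAB3 and calcium channels and prepare vesicles for release. ABCC9 encodes a sulphonylurea receptor, the regulatory subunit of potassium channels that close when ATP is high, and KCNJ8 encodes a pore subunit of such channels. GALNTL6 belongs to the polypeptide GalNAc transferases, the family that starts mucin-type O-glycan chains. GJA5 encodes a connexin of gap junctions in atrial muscle and arterial endothelium. SERTAD4 encodes a protein with a SERTA domain, a motif of a small family of transcriptional regulators. KRTAP4-8 encodes a keratin-associated protein, of the group that cross-links keratin filaments in the hair shaft.

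The region around the annotated start is shown for a gene of each kind of pattern described below: ESM1 and RIMS1, which were low in the line lacking an activation domain, and SERTAD4 and KRTAP4-8, which were high there. Each run is 300 bases from RefSeq (GRCh38.p14), 5′ to 3′ on the gene's own strand, from 250 bases before the start to 50 after it. Capitals mark matches to the motifs searched. The ESM1 window is chr5:54985544-54985843 on the minus strand, and the RIMS1 window is chr6:71886300-71886599 on the plus strand. The SERTAD4 window is chr1:210232546-210232845 on the plus strand, and the KRTAP4-8 window is chr17:41098093-41098392 on the minus strand.
ESM1: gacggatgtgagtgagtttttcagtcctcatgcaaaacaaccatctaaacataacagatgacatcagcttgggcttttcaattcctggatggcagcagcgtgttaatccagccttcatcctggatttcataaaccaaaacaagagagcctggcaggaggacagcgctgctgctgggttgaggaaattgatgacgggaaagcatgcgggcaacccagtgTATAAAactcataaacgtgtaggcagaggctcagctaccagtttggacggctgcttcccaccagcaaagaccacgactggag
RIMS1: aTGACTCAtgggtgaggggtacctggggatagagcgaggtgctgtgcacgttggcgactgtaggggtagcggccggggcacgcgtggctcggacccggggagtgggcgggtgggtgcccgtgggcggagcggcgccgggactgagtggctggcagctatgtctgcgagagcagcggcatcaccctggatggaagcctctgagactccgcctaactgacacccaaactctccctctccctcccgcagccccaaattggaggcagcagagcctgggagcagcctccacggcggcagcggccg
SERTAD4: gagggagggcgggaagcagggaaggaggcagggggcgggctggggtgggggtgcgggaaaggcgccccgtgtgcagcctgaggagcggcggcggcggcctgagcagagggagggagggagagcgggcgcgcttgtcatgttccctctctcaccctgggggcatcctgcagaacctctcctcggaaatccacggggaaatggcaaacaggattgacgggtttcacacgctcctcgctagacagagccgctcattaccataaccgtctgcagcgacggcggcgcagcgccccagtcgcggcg
KRTAP4-8: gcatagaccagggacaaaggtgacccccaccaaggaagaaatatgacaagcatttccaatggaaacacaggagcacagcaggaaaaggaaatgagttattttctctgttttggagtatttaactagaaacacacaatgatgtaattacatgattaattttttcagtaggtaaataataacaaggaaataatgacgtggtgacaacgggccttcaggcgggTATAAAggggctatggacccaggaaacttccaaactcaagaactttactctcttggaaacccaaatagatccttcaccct

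Start windows on chromosome 8, where RIMS2 lies, were left out. RefSeq start windows of the other 7 genes were read, 11 windows in all. They were searched on both strands for the TATA box (TATAAA), the AP-1 motif (TGANTCA), the TEAD motif (GGAATG), the cyclic AMP response element (TGACGTCA) and an E-box (CACGTG). The TATA box letters began at base -32 of ESM1 and at base -30 of KRTAP4-8, and on the opposite strand at base -88 of GALNTL6, while 11.5% of 35116 windows of all genes hold them. The AP-1 letters were at base -249 of RIMS1 and again at base 21 of another start window of the same gene, against 7.71% of all windows. The TEAD letters were in a later start window of RIMS1 and of GJA5 (14% of all windows) and the E-box letters in GALNTL6 (7.26%). The cyclic AMP element was in none of the 11 windows searched (1.85% of all windows). The windows printed above were 49.3% G and C for ESM1, 68.3% for RIMS1, 68.3% for SERTAD4 and 40.3% for KRTAP4-8, beside a median of 58.7% over all windows. None of the motifs contains another. A match is a description of letters and not a site.

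The choice rested on guides against no guides in the VP64 lines and in the p65 lines, so those values are given as a description with no test. Log2 fold changes are from edgeR, fitted over all 14961 genes tested, and all 8 genes passed its filter on low counts. In the VP64 lines they ran from -2.22 (ABCC9, SE 0.40) to -1.26 (SERTAD4, SE 0.121), with a median of -1.77. In the p65 lines they ran from -2.35 (KRTAP4-8, SE 0.47) to -1.40 (ABCC9, SE 0.388), with a median of -1.52. By size of the fall they ranked between 14 and 70 among the 3185 genes called lower with VP64 (21.3% of all tested), and between 7 and 29 among the 3018 called lower with p65 (20.2% of all tested). In bulk RNA, fewer cells of a kind and less RNA per cell cannot be told apart.

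The rule did not use the line lacking an activation domain. Set against that line, ESM1, RIMS1, ABCC9 and GALNTL6 were not called in either line with guides, RIMS2 was called lower with guides in the VP64 line, and GJA5, SERTAD4 and KRTAP4-8 were called lower with guides in both. Against it, both lines with an activation domain and no guides had 5 of the 8 genes called higher (ESM1, RIMS1, RIMS2, ABCC9 and GALNTL6) and 1 called lower (GJA5), with SERTAD4 and KRTAP4-8 not called. Of all tested genes, 23.6% were called higher and 24.0% lower in VP64 without guides, and 24.7% and 24.9% in p65 without guides. These comparisons share the libraries without guides with the comparisons that chose the genes, so each is given with its own values. A gene chosen for being high in those libraries is more likely to stand above a further line too, so the count of 5 is not independent of the choice.

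**Figure D1:**
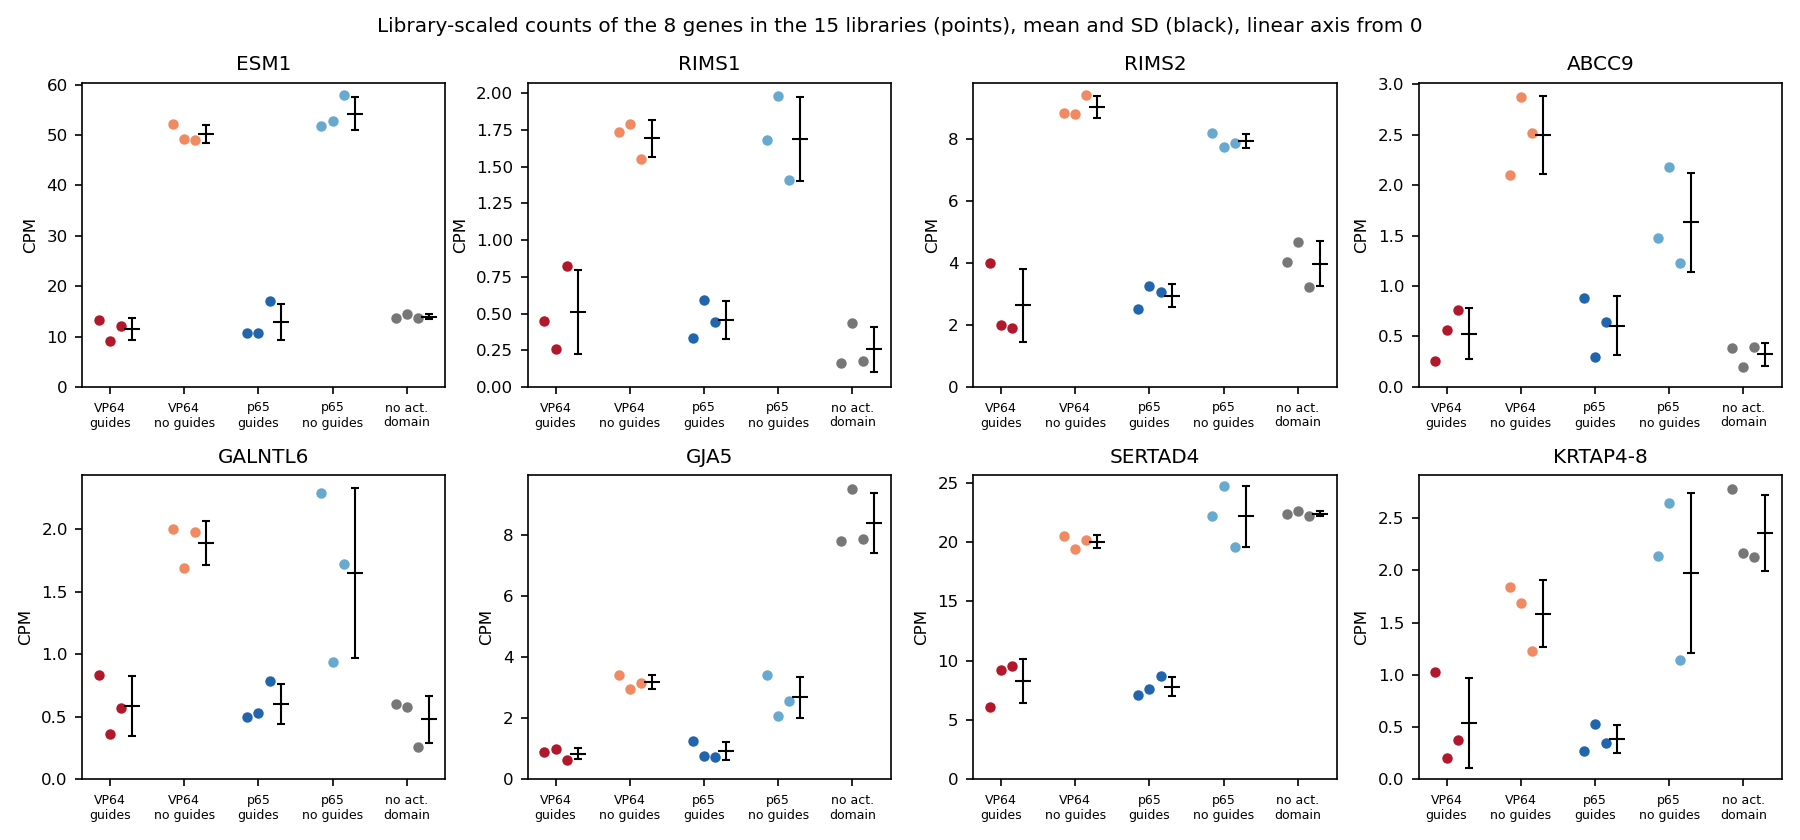
CPM of each of the 8 genes in each library (points), with the mean and SD of the 3 libraries of a line in black, on linear axes that start at 0. For ESM1, RIMS1, RIMS2, ABCC9 and GALNTL6, the VP64 and p65 lines without guides stand above the other lines, while GJA5, SERTAD4 and KRTAP4-8 are low in the lines with guides and not in the line lacking an activation domain.

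ESM1 (ENSG00000164283.12, hg38, chromosome 5, 54977864 to 55022671) was the most abundant of the 8 per unit of length. In VP64 with guides it had 13.3, 9.09 and 12 CPM, against 52.2, 49.2 and 49.0 CPM in VP64 without guides. In p65 with guides it had 10.8, 10.8 and 17.1 CPM, against 51.9, 52.9 and 58.0 CPM in p65 without guides. The line lacking an activation domain had 13.7, 14.5 and 13.7 CPM. All 6 libraries without guides but with an activation domain lay above all 9 others, and the libraries of VP64 with guides all lay just below those of the line lacking an activation domain. ESM1 was 3.59-fold higher in VP64 without guides than in the line lacking an activation domain (log2 fold change 1.84, SE 0.118, edgeR adjusted p = 3.21e-11), and 3.88-fold higher in p65 without guides (1.96, SE 0.118, adjusted p = 9.07e-12). With guides it was not called against the line lacking an activation domain, at -0.30 with VP64 (SE 0.142, adjusted p = 0.0792) and -0.10 with p65 (SE 0.136, adjusted p = 0.565). The first of these passed without replicate A of VP64 with guides (-0.40, adjusted p = 0.0365) and the other without replicate C of p65 with guides (-0.37, adjusted p = 0.0104), the library with 17.1 CPM. As TPM, a level per length of transcript, ESM1 averaged 12.6 ± 3.65 in VP64 with guides, 54.4 ± 1.86 in VP64 without guides, 14 ± 5.38 in p65 with guides, 57.6 ± 3.5 in p65 without guides and 14.8 ± 0.514 in the line lacking an activation domain (SD, n = 3 each).

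RIMS1 (ENSG00000079841.18, chromosome 6, 71886703 to 72403143) was at few counts in every library. It had 7, 5 and 13 counts in VP64 with guides, against 34, 35 and 29 in VP64 without guides. It had 6, 10 and 9 counts in p65 with guides, against 33, 38 and 32 in p65 without guides, and 3, 9 and 4 in the line lacking an activation domain. Every library without guides but with an activation domain was above every other library. Against the line lacking an activation domain, RIMS1 was higher by 2.69 in VP64 without guides (SE 0.454, adjusted p = 1.42e-05) and by 2.68 in p65 without guides (SE 0.453, adjusted p = 1.35e-05), on the log2 scale. Without replicate B of the line lacking an activation domain, which holds 9 of its 16 counts, these were 3.29 and 3.27. With guides RIMS1 stood at 0.93 (SE 0.514, adjusted p = 0.123) for VP64 and 0.80 (SE 0.514, adjusted p = 0.19) for p65 against the same line. The VP64 value passed without replicate B of VP64 with guides (1.29, adjusted p = 0.0426) or without replicate B of the line lacking an activation domain (1.54, adjusted p = 0.0326).

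RIMS2 (ENSG00000176406.22, chromosome 8, 103500748 to 104256094), the paralogue of RIMS1, was more abundant. It had 62, 39 and 30 counts in VP64 with guides, against 173, 172 and 176 in VP64 without guides. It had 46, 55 and 62 counts in p65 with guides, against 161, 149 and 179 in p65 without guides, and 74, 97 and 74 in the line lacking an activation domain. Without guides it was 2.27-fold higher with VP64 (log2 fold change 1.19, SE 0.183, adjusted p = 1.31e-05) and 2.00-fold higher with p65 (1.0, SE 0.184, adjusted p = 9.74e-05) than lacking an activation domain. With guides it lay below that line, at -0.61 with VP64 (SE 0.216, adjusted p = 0.0213) and -0.43 with p65 (SE 0.208, adjusted p = 0.0884), and in both cases the CPM of the libraries overlapped. The VP64 call was lost when only the libraries compared were fitted (-0.59, adjusted p = 0.0699). It was also lost without replicate B (-0.43) or C (-0.41) of VP64 with guides, and without replicate A (-0.57) or B (-0.45) of the line lacking an activation domain. The p65 value passed without replicate C of that line (-0.55, adjusted p = 0.0448).

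ABCC9 (ENSG00000069431.11, chromosome 12, 21797401 to 21942529) had 4, 11 and 12 counts in VP64 with guides, against 41, 56 and 47 in VP64 without guides. It had 16, 5 and 13 counts in p65 with guides, against 29, 42 and 28 in p65 without guides, and 7, 4 and 9 in the line lacking an activation domain. The libraries without guides but with an activation domain were again above all others. ABCC9 was 7.75-fold higher by mean CPM in VP64 without guides than in the line lacking an activation domain (log2 fold change 2.93, SE 0.434, adjusted p = 2.62e-06) and 5.07-fold higher in p65 without guides (2.31, SE 0.442, adjusted p = 7.31e-05). With guides it was not called against that line, at 0.71 for VP64 (SE 0.505, adjusted p = 0.241) and 0.91 for p65 (SE 0.488, adjusted p = 0.113). The p65 value passed without replicate B of p65 with guides (1.22, adjusted p = 0.0386).

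The effective length that RSEM gave ABCC9, the mean length over which its transcripts could yield reads, ran from 749 bases in replicate A of p65 with guides to 7955 bases in replicate A of VP64 with guides. The TPM of ABCC9 was 1.45 in replicate A of p65 with guides and 0.08 and 0.10 in replicates B and C, while the counts were 16, 5 and 13. With an offset for effective length, the difference of guides from no guides in the p65 lines was -0.16 and was no longer called (adjusted p = 0.918), while it was -1.40 from the counts alone. The mean TPM was likewise 0.543 ± 0.785 in p65 with guides and 0.343 ± 0.179 in p65 without guides (SD, n = 3 each), so the lower level of ABCC9 in p65 with guides held for counts and not for mean TPM. That mean rests on replicate A of p65 with guides. Replicates B and C lay below the 0.23, 0.55 and 0.25 TPM of replicates A, B and C of p65 without guides. With the same offset, ABCC9 in p65 with guides stood at 2.21 against the line lacking an activation domain (adjusted p = 0.0836) and at 1.84 against VP64 with guides (adjusted p = 0.361), beside 0.91 and 0.20 from the counts. Repeats are a further limit, since 5.35% of the 11707 distinct windows of 50 bases in ABCC9 transcripts also occur in transcripts of other genes in GENCODE release 29.

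GALNTL6 (ENSG00000174473.15, chromosome 4, 171812254 to 173041559) had 13, 7 and 9 counts in VP64 with guides, against 39, 33 and 37 in VP64 without guides. It had 9, 9 and 16 counts in p65 with guides, against 45, 18 and 39 in p65 without guides, and 11, 12 and 6 in the line lacking an activation domain. In CPM the libraries with guides reached at most 0.838, still below the 0.936 of the library with 18 counts, the lowest of the VP64 and p65 libraries without guides. GALNTL6 was higher without guides than in the line lacking an activation domain by 1.99 with VP64 (SE 0.40, adjusted p = 0.000196) and by 1.79 with p65 (SE 0.402, adjusted p = 0.000551) on the log2 scale. With guides it was not called against that line, at 0.29 with VP64 (SE 0.463, adjusted p = 0.625) and 0.37 with p65 (SE 0.452, adjusted p = 0.511).

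GJA5 (ENSG00000265107.2, chromosome 1, 147756199 to 147773362) took the opposite order among the lines without guides. It had 0.902, 0.981 and 0.632 CPM in VP64 with guides, against 3.43, 2.97 and 3.16 CPM in VP64 without guides. It had 1.27, 0.77 and 0.74 CPM in p65 with guides, against 3.41, 2.08 and 2.55 CPM in p65 without guides, and 7.79, 9.51 and 7.87 CPM in the line lacking an activation domain. The 3 levels did not overlap: every library with guides was lowest, the VP64 and p65 libraries without guides came next, and those lacking an activation domain were highest. GJA5 fell by 1.39 on the log2 scale in VP64 without guides (SE 0.188, adjusted p = 2.3e-06) and by 1.64 in p65 without guides (SE 0.191, adjusted p = 2.62e-07), against the line lacking an activation domain. With guides it was 10.0-fold lower than that line with VP64 (log2 fold change -3.30, SE 0.257, adjusted p = 8.29e-11) and 9.07-fold lower with p65 (-3.18, SE 0.244, adjusted p = 8.22e-11). Of its 3243 windows of 50 bases, 17.0% lie antisense to transcripts of AC241644.3, which had 0 to 3 counts per library.

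SERTAD4 (ENSG00000082497.11, chromosome 1, 210232799 to 210246631) was at a similar level in the VP64 and p65 lines without guides and in the line lacking an activation domain. It had 6.12, 9.19 and 9.54 CPM in VP64 with guides, against 20.5, 19.4 and 20.2 CPM in VP64 without guides. It had 7.15, 7.58 and 8.68 CPM in p65 with guides, against 22.2, 24.7 and 19.6 CPM in p65 without guides, and 22.4, 22.6 and 22.2 CPM in the line lacking an activation domain. The 6 libraries with guides lay below the 9 without. Against the line lacking an activation domain, SERTAD4 fell by 1.43 on the log2 scale in VP64 with guides (SE 0.119, adjusted p = 9.24e-10) and by 1.52 in p65 with guides (SE 0.119, adjusted p = 2.93e-10). Without guides the difference from that line was -0.16 with VP64 (SE 0.103, adjusted p = 0.201) and -0.02 with p65 (SE 0.101, adjusted p = 0.889).

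KRTAP4-8 (ENSG00000204880.7, chromosome 17, 41096981 to 41098141) had 16, 4 and 6 counts in VP64 with guides, against 36, 33 and 23 in VP64 without guides. It had 5, 9 and 7 counts in p65 with guides, against 42, 51 and 26 in p65 without guides, and 51, 45 and 49 in the line lacking an activation domain. The libraries with guides were below all others in CPM, the closest being 1.03 in replicate A of VP64 with guides and 1.14 in replicate C of p65 without guides. KRTAP4-8 fell by 2.17 on the log2 scale in VP64 with guides (SE 0.437, adjusted p = 0.000125) and by 2.61 in p65 with guides (SE 0.466, adjusted p = 2.05e-05), against the line lacking an activation domain. Without replicate A of VP64 with guides the VP64 value was -2.99, and the value against VP64 without guides was -2.44 in place of -1.60. Without guides it was not called against the line lacking an activation domain, at -0.56 with VP64 (SE 0.341, adjusted p = 0.184) and -0.26 with p65 (SE 0.331, adjusted p = 0.542). KRTAP4-8 is uncertain as a single gene, because 17.7% of its 1183 windows of 50 bases also occur in transcripts of other genes, led by KRTAP4-11, KRTAP4-9 and KRTAP4-7. Those genes had 0 to 1, 0 to 20 and 0 to 10 counts per library, while KRTAP4-8 had 4 to 51.

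**Figure D2:**
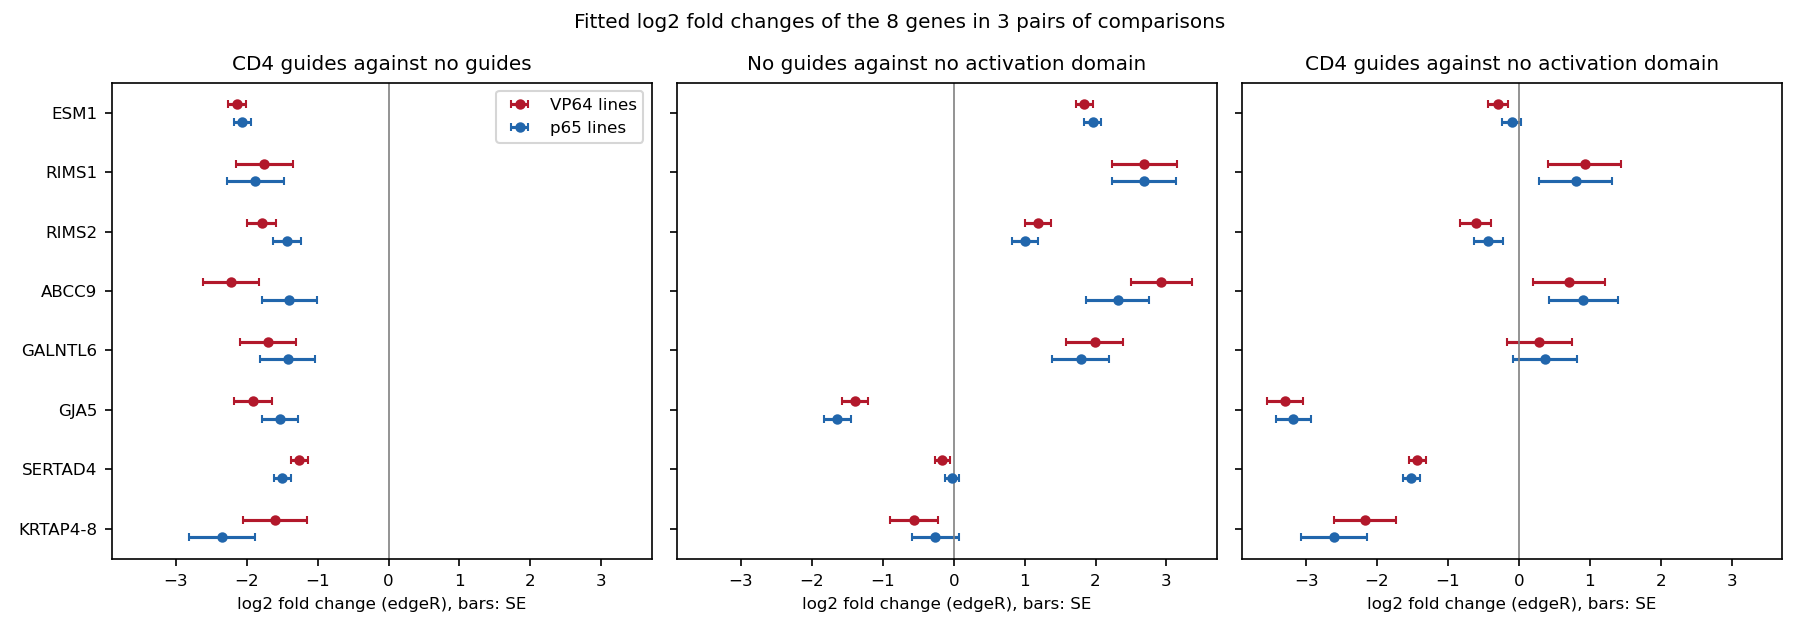
Fitted log2 fold changes of the 8 genes, with SE bars, for guides against no guides (left, the comparisons that chose the genes), no guides against no activation domain (middle) and guides against no activation domain (right), with the VP64 lines in red and the p65 lines in blue. In the middle panel ESM1, RIMS1, RIMS2, ABCC9 and GALNTL6 lie between 1.0 and 2.93 and GJA5 lies between -1.64 and -1.39.

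Against the line lacking an activation domain, 4 of the 8 genes were called lower and 0 higher in VP64 with guides (RIMS2, GJA5, SERTAD4 and KRTAP4-8), where 27.1% of all tested genes were called lower and 26.0% higher. In p65 with guides 3 were called lower (GJA5, SERTAD4 and KRTAP4-8) and 0 higher, where 27.5% were called lower and 25.8% higher. The libraries with guides are those whose low values chose the genes, so these counts of lower genes are not independent of the choice either. DESeq2 called 4 of the 8 with VP64 and 3 with p65, all of them lower. Over all genes it called 7530 with VP64, 50.6% of them higher, and 7557 with p65, 51% of them higher. At an unadjusted edgeR p under 0.05, 5 passed with VP64 (the added gene being ESM1, which was lower) and 3 passed with p65, so 0 were higher by that measure too. The share of all genes at that unadjusted p was not counted. The median over the 8 genes was -0.45 with VP64 and -0.26 with p65, and it was -0.01 and -0.02 over all tested genes.

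None of the 8 genes was called between the p65 and VP64 nanobodies. Between p65 and VP64 without guides, edgeR called 0 of 8, where it called 2.11% of all genes, and with guides it called 0 of 8, where it called 7.92%. At an unadjusted p under 0.05, not counted over all genes, the number was 0 in both comparisons. DESeq2 called 0 of the 8 in both, where it called 380 of all genes without guides and 1211 with guides. The largest difference without guides was that of ABCC9, which had 1.48, 2.18 and 1.23 CPM with p65 and 2.10, 2.87 and 2.52 CPM with VP64 (log2 fold change -0.62, SE 0.317, adjusted p = 0.389). RIMS2 was the 1 of the 8 genes whose libraries without guides did not overlap, with a difference of -0.19 (SE 0.17, adjusted p = 0.69). It had 8.20, 7.75 and 7.88 CPM with p65 and 8.86, 8.80 and 9.43 CPM with VP64. The share of all genes without overlap was not counted. For 3 against 3 libraries, full separation has a 2-sided exact permutation p of 0.1, so it is no result about RIMS2. With guides, differences ran from -0.44 for KRTAP4-8 (SE 0.551) to 0.20 for ESM1 (SE 0.145) and ABCC9 (SE 0.458). The guide effect with p65 minus that with VP64, which is built from the comparisons that chose the genes and is not tested here, ran from -0.74 for KRTAP4-8 (SE 0.651) to 0.82 for ABCC9 (SE 0.557).

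Per length of transcript, the order of the genes in the line lacking an activation domain was ESM1 at 14.8 ± 0.514 TPM, SERTAD4 at 8.94 ± 1.5, GJA5 at 3.55 ± 0.383, KRTAP4-8 at 3.48 ± 0.537, RIMS2 at 1.46 ± 0.354, GALNTL6 at 0.313 ± 0.15, ABCC9 at 0.0733 ± 0.0513 and RIMS1 at 0.0733 ± 0.0493 (SD, n = 3 each). GJA5 and KRTAP4-8 did not differ beyond their spread, nor did ABCC9 and RIMS1. In VP64 with guides the order was ESM1 at 12.6 ± 3.65 TPM, SERTAD4 at 2.76 ± 1.06, RIMS2 at 0.94 ± 0.416, KRTAP4-8 at 0.81 ± 0.637, GALNTL6 at 0.47 ± 0.244, GJA5 at 0.367 ± 0.0777, RIMS1 at 0.15 ± 0.0889 and ABCC9 at 0.0833 ± 0.0404 (SD, n = 3 each). From RIMS2 downwards the neighbours in that order overlapped within 1 SD, except GJA5 and RIMS1.

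Neighbours on the chromosome were examined within 100 kb of each gene. For ABCC9 and SERTAD4 a neighbour had a similar order of lines, and for KRTAP4-8 a neighbour was also lower with guides. KCNJ8, the potassium channel pore gene 21.8 kb from ABCC9 on the same strand, had 2.83, 2.99 and 2.91 CPM in VP64 with guides, against 5.02, 4.66 and 5.41 CPM in VP64 without guides. It had 4.13, 2.78 and 3.85 CPM in p65 with guides, against 4.94, 5.20 and 6.29 CPM in p65 without guides, and 2.89, 3.19 and 3.13 CPM in the line lacking an activation domain. The libraries without guides but with an activation domain were above all others, as for ABCC9. KCNJ8 fell with guides by 0.78 in the VP64 lines (SE 0.171, adjusted p = 0.000744) and by 0.61 in the p65 lines (SE 0.162, adjusted p = 0.00449), on the log2 scale. Against the line lacking an activation domain it rose by 0.71 in VP64 without guides (SE 0.165, adjusted p = 0.00114) and by 0.84 in p65 without guides (SE 0.163, adjusted p = 0.000189). LDHB, a lactate dehydrogenase gene 39.5 kb from ABCC9, was called lower with guides in the VP64 lines, at -0.10 (SE 0.0341, adjusted p = 0.0204). In the p65 lines it stood at -0.08 (SE 0.034, adjusted p = 0.0598).

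SERTAD4-AS1 (chromosome 1, 210231456 to 210234047) is annotated on the opposite strand and spans the start window of SERTAD4 printed above. It had 2.06, 1.39 and 2.02 CPM in VP64 with guides, against 2.82, 3.79 and 3.43 CPM in VP64 without guides. It had 0.935, 1.60 and 1.53 CPM in p65 with guides, against 3.56, 3.38 and 4.49 CPM in p65 without guides, and 3.76, 4.68 and 3.31 CPM in the line lacking an activation domain. It was called lower with guides in both arms, by 0.89 with VP64 (SE 0.235, adjusted p = 0.00389) and by 1.49 with p65 (SE 0.24, adjusted p = 2.55e-05) on the log2 scale. Whether the counting used strand was not stated in the labels or headers, so reads of the pair cannot be told apart where exons overlap. That overlap covers 125 (2.27%) of the 5510 windows of 50 bases in SERTAD4 transcripts. The share of SERTAD4-AS1 that it covers was not counted. It may be larger, because the effective length of SERTAD4-AS1 was 311 to 351 bases. The levels of the pair may therefore not be independent. The other tested neighbours of SERTAD4 were HHAT, 81.6 kb away, and SYT14, 61.4 kb away. HHAT was called lower with guides, at -0.50 with VP64 (SE 0.0769, adjusted p = 1.69e-05) and -0.41 with p65 (SE 0.0739, adjusted p = 0.000109). SYT14 stood at -0.31 with VP64 (SE 0.172, adjusted p = 0.155) and -0.46 with p65 (SE 0.166, adjusted p = 0.0323).

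**Figure D3:**
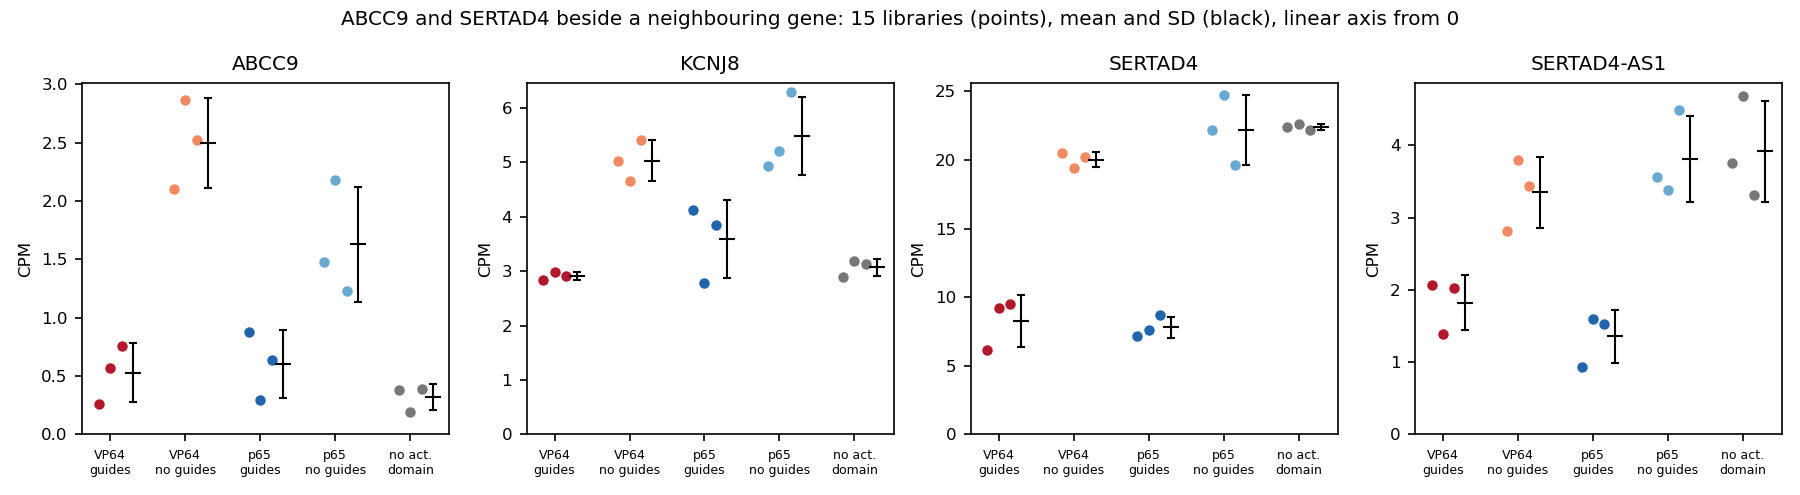
CPM of ABCC9 beside KCNJ8 and of SERTAD4 beside SERTAD4-AS1 in each library (points), with mean and SD in black, on linear axes that start at 0. KCNJ8 is highest in the VP64 and p65 lines without guides, like ABCC9, and SERTAD4-AS1 is lowest in the lines with guides, like SERTAD4.

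Beside GJA5, ACP6, 85.7 kb away, stood at 0.47 (SE 0.0802, adjusted p = 6.46e-05) with VP64 and 0.32 (SE 0.0788, adjusted p = 0.00278) with p65, higher with guides where GJA5 was lower. Near RIMS2, SLC25A32 was called lower with guides, at -0.29 with VP64 (SE 0.0507, adjusted p = 7.38e-05) and -0.21 with p65 (SE 0.0496, adjusted p = 0.00175). DCAF13 was also called lower, at -0.40 (SE 0.0616, adjusted p = 2.01e-05) and -0.17 (SE 0.0599, adjusted p = 0.0269), in the same order. DCSTAMP was not called, at 0.91 with VP64 (SE 0.419, adjusted p = 0.085) and 0.39 with p65 (SE 0.413, adjusted p = 0.491). AC105285.1, an antisense gene 90.4 kb from GALNTL6, stood at -0.08 (SE 0.411) and -0.23 (SE 0.426) and was not called. Of 25 annotated genes within 100 kb of KRTAP4-8, KRTAP2-3 was the 1 tested. It had 12.6, 10.2 and 11.9 CPM in VP64 with guides, against 20.6, 22.9 and 24.1 CPM in VP64 without guides, and fell by 0.96 (SE 0.104, adjusted p = 1.41e-07) on the log2 scale. It had 12.3, 13.4 and 15.3 CPM in p65 with guides, against 20.3, 22.7 and 23.1 CPM in p65 without guides, and fell by 0.69 (SE 0.099, adjusted p = 8.3e-06). The line lacking an activation domain had 35.4, 36.4 and 30.3 CPM. Against that line KRTAP2-3 was called lower without guides, at -0.59 with VP64 (SE 0.089, edgeR adjusted p = 9.85e-06). With p65 without guides it stood at -0.62 (SE 0.0886, adjusted p = 4.47e-06). KRTAP4-8 was not called in those comparisons. KRTAP2-3 has a near-identical copy, KRTAP2-4, so its own level is uncertain. ESM1 and RIMS1 had no tested neighbour within 100 kb.

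The families and partners of the 8 genes were counted without the 8 genes themselves, with guides against no guides. Over all tested genes 19.3% were called higher and 21.3% lower with VP64, and 18.7% higher and 20.2% lower with p65, and the counts of each list stand beside those shares. Of 20 tested proteoglycan genes beside ESM1, 7 were called higher and 1 lower with VP64, and 8 higher and 1 lower with p65. SDC1, a syndecan, was the 1 that fell, by 0.76 with VP64 (SE 0.0457) and by 0.46 with p65 (SE 0.045), and GPC6, a glypican, rose by 1.17 (SE 0.0897) and 1.06 (SE 0.0939). The median was 0.27 in both arms, beside 0.00 and -0.01 over all tested genes. Of 9 tested genes for connexins, pannexins and their partner TJP1, 2 rose and 3 fell with VP64, and 3 rose and 1 fell with p65, with medians of 0.13 and 0.17. The connexin gene GJC1 fell by 0.38 (SE 0.0455) and 0.34 (SE 0.0451), and GJB1 rose by 2.03 (SE 0.28, adjusted p = 3.02e-06) and 0.80 (SE 0.286, adjusted p = 0.0292).

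Of 23 tested active zone and vesicle priming genes beside RIMS1 and RIMS2, 10 rose and 4 fell with VP64, and 8 rose and 3 fell with p65, with medians of 0.16 and 0.20. PCLO, which encodes the active zone scaffold piccolo, fell by 0.89 (SE 0.0751, adjusted p = 4.21e-09) with VP64 and by 0.85 (SE 0.0738, adjusted p = 7.44e-09) with p65. UNC13D, a vesicle priming factor, rose by 0.74 (SE 0.0838) and 0.65 (SE 0.0848), and VAMP2, a vesicle SNARE, rose by 0.55 (SE 0.0722) and 0.59 (SE 0.0721). PPFIA2, a liprin of the active zone, had 3.98 ± 0.178 CPM in p65 with guides and 0.398 ± 0.258 CPM in p65 without guides (SD, n = 3 each), a rise of 3.28 (SE 0.387, adjusted p = 1.94e-07). With VP64 it rose by 2.25 (SE 0.49, adjusted p = 0.00034), from 0.243 ± 0.0798 CPM without guides to 1.19 ± 0.363 CPM with guides (SD, n = 3 each).

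Of 9 tested ABCC transporter and potassium channel pore genes beside ABCC9, 2 rose and 2 fell with VP64, and 3 rose and 1 fell with p65, with medians of 0.06 and -0.07. ABCC2, an organic anion exporter, rose by 1.99 (SE 0.227, adjusted p = 2.09e-07) and 3.18 (SE 0.202, adjusted p = 2.69e-11), and the falls included KCNJ8. Of 19 tested GalNAc transferase and core O-glycan genes beside GALNTL6, 4 rose and 3 fell with VP64, and 7 rose and 2 fell with p65, with medians of 0.11 and 0.14. GALNT2, which starts O-glycan chains, rose by 0.32 (SE 0.0358) and 0.51 (SE 0.0358), and C1GALT1, which extends them, fell by 0.36 (SE 0.0555) and 0.25 (SE 0.0551).

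The other 4 SERTA domain genes were all tested. With VP64, 3 fell and 1 rose, and with p65, 3 fell and 0 rose, with medians of -0.38 and -0.28. SERTAD2 fell by 0.54 (SE 0.0559) and 0.55 (SE 0.0551), CDCA4 by 0.31 (SE 0.0553) and 0.33 (SE 0.0549), and SERTAD1 by 0.46 (SE 0.0584) and 0.23 (SE 0.0577). SERTAD3 rose by 0.20 with VP64 (SE 0.0657, adjusted p = 0.0209) and stood at 0.02 with p65 (SE 0.0666, adjusted p = 0.831). Against the line lacking an activation domain, SERTAD1 rose by 1.33 in VP64 without guides (SE 0.0609, adjusted p = 1.96e-13) and by 1.20 in p65 without guides (SE 0.061, adjusted p = 7.99e-13), where SERTAD4 was not called. Of 94 keratin-associated protein genes, KRTAP4-8 and KRTAP2-3 were the 2 tested.

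**Figure D4:**
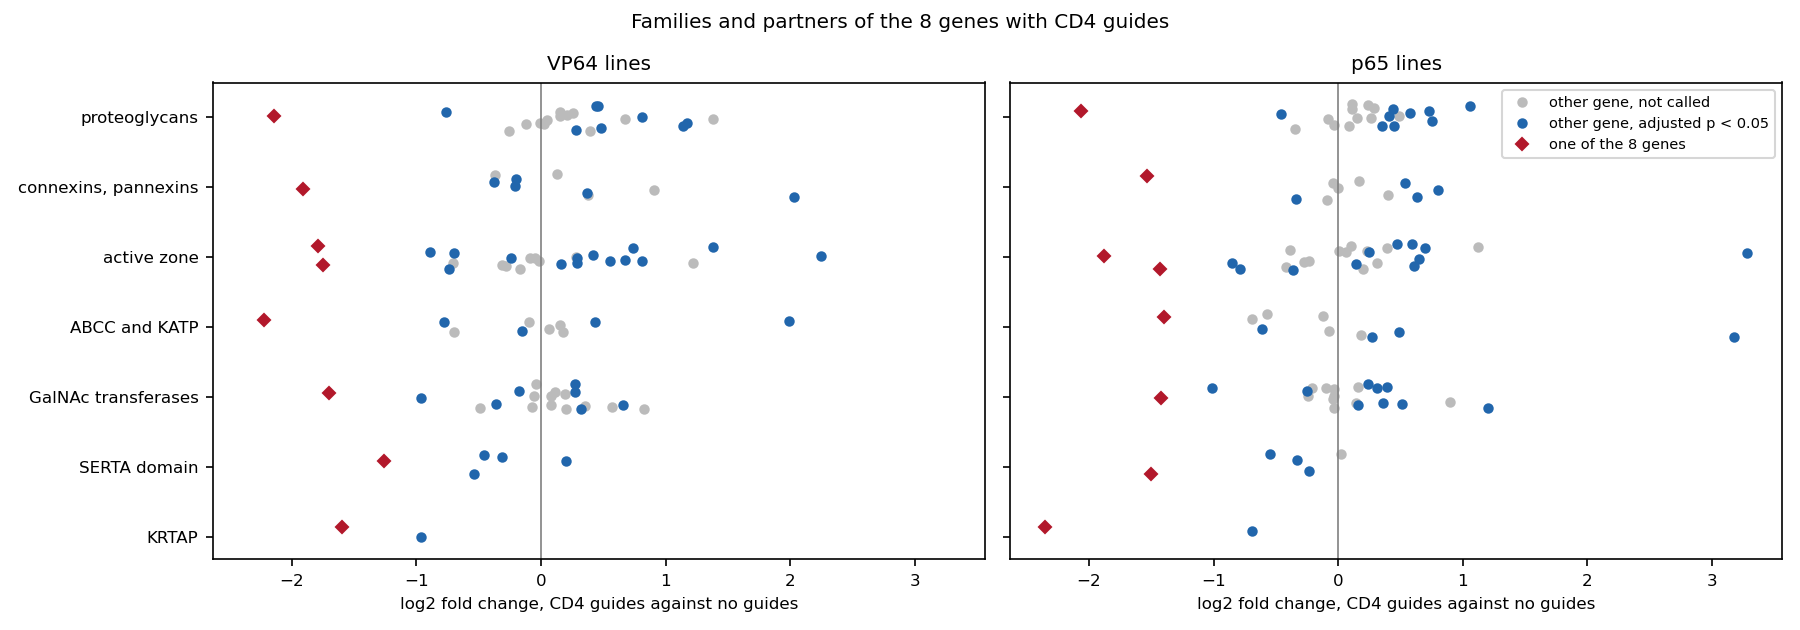
Log2 fold change with guides against no guides, on the horizontal axis, of every tested gene in the families and partners of the 8 genes, by list, in the VP64 lines (left) and the p65 lines (right). The 8 genes are red diamonds, at or below -1.26, and other genes are blue where the adjusted p was under 0.05 and grey otherwise; PPFIA2 at 3.28 and ABCC2 at 3.18 lie farthest to the right with p65. Vertical spread within a list only separates the points.

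Likeness of pattern was measured as Pearson's r of log2(CPM + 0.5) over the 15 libraries, which share lines, vectors and depth, so r is a description. Among the 8 genes, ESM1 had r of 0.94 with RIMS2, 0.91 with RIMS1, 0.90 with GALNTL6 and 0.85 with ABCC9. It had r of 0.66 with SERTAD4, 0.53 with KRTAP4-8 and 0.26 with GJA5. SERTAD4 had r of 0.86 with KRTAP4-8 and 0.83 with GJA5, and GJA5 had r of -0.03 with RIMS1 and 0.02 with ABCC9. The genes most like ESM1 were CORO1C (r = 0.977), UBR4 (0.973) and TRAM2 (0.972). For RIMS1 they were SPTLC2 (0.96), ANKLE2 (0.957) and RBMS3 (0.956), and for RIMS2 they were ACTG1 (0.969), MTA2 (0.968) and RBM14 (0.966). For ABCC9 they were RLIM (0.951), SPTLC2 (0.95) and MGAT5 (0.946), and for GALNTL6 they were MB21D2 (0.931), ANKLE2 (0.924) and FAM83G (0.92).

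For GJA5 the most alike genes were TACC3 (r = 0.977), FANCI (0.975) and EZH2 (0.973), and for SERTAD4 they were MKI67, EGFR and CENPF (0.981 each). MKI67 and CENPF are widely used as markers of dividing cells, TACC3 acts at the mitotic spindle and FANCI in DNA repair. For KRTAP4-8 they were BTG3 (0.952), RPS6KA4 (0.944) and E2F8 (0.943). All 8 genes were compared with genes that averaged at least 1 CPM.

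Markers of the cell types in which these genes are best known were read as TPM, and their part in the results was not tested. SOX10, a transcription factor of the melanocyte lineage, ran from 122 to 237 TPM over the libraries, while the melanocyte antigen MLANA was at 0 to 0.53 TPM. Of 10 melanocyte and melanoma markers 9 were tested, of which 7 rose and 0 fell with guides in the VP64 lines, and 5 rose and 1 fell in the p65 lines, where 19.3% and 18.7% of all tested genes rose and 21.3% and 20.2% fell, for VP64 and p65 in that order. Their summed level was 458 to 552 TPM in VP64 with guides, 241 to 266 in VP64 without guides, 321 to 430 in p65 with guides, 212 to 234 in p65 without guides and 243 to 251 in the line lacking an activation domain. Of 10 endothelial markers, EMCN was at 0 in all libraries, CDH5 reached 0.37 TPM and VWF 0.12 TPM. TIE1 ran from 0.18 to 5.6 TPM, PECAM1 from 0.33 to 1.36 TPM and ESAM from 0.29 to 1.1 TPM. TPM depends on effective length, as for ABCC9, and the lengths of these markers were not examined. In counts TIE1 varied less within VP64 with guides, at 3.15 ± 0.36 CPM (SD, n = 3). The summed level of all 10 was 2.38 to 7.71 TPM in VP64 with guides and 2.15 to 3.15 in VP64 without guides. It was 3.03 to 4.30 in p65 with guides and 2.57 to 3.70 in p65 without guides. In the line lacking an activation domain it was 3.24 to 3.54. With guides 1 of the 4 tested endothelial markers rose with VP64 (TIE1, by 1.04, SE 0.26) and 0 fell, and 0 were called with p65.

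The summed hair and keratinocyte markers were, like KRTAP4-8, lower with guides in both arms. Of the 2 tested, KRT81 fell in each arm and KRT86 was not called in either, where 21.3% of all tested genes fell with VP64 and 20.2% with p65. Unlike KRTAP4-8, the 2 were also called lower without guides than in the line lacking an activation domain, with VP64 and with p65. Of all tested genes, 24.0% and 24.9% were called lower there. Of the 10 markers, the hair keratin genes KRT33A, KRT35 and KRT85 were at 0 counts in all lines and KRT81 carried most of the sum, at 8.49 to 34.2 TPM. The summed level was 11.7 to 14 TPM in VP64 with guides, 19.2 to 23.8 in VP64 without guides, 9.64 to 10.2 in p65 with guides, 15.2 to 16.6 in p65 without guides and 33.9 to 35.5 in the line lacking an activation domain. Among 10 neuronal markers, GAP43 reached at most 0.05 TPM and ELAVL3 0.13 TPM. SYT1 ran from 2.92 to 10.4 TPM, RBFOX3 from 0.32 to 11.3 TPM and TUBB3, which many tumour lines express, from 348 to 414 TPM. The mean of RBFOX3 was 0.718 to 1.12 CPM over the lines, so its TPM range was not matched by its mean counts. Of the 7 tested, 1 (NEFL) rose and 1 (SYT1) fell with guides in each arm. Of all tested genes, 19.3% and 18.7% rose and 21.3% and 20.2% fell, for VP64 and p65 in that order. SYT1 fell by 0.74 with VP64 (SE 0.126) and by 0.79 with p65 (SE 0.136). The summed level of the neuronal markers was 389 to 430 TPM in VP64 with guides and 389 to 412 in VP64 without guides. It was 373 to 387 in p65 with guides and 361 to 377 in p65 without guides. In the line lacking an activation domain it was 400 to 405. Among smooth muscle and pericyte markers, CNN1 reached at most 0.05 TPM and PDGFRB 0.67 TPM, and ACTA2 carried most of the sum. That sum was 117 to 123 TPM in VP64 with guides, 93.2 to 97.3 in VP64 without guides, 107 to 118 in p65 with guides, 105 to 116 in p65 without guides and 53.7 to 63.9 in the line lacking an activation domain. It holds 2 entries of RGS5. Of the 7 entries tested, 2 (CSPG4 and ACTA2) rose and 0 fell with guides in the VP64 lines. In the p65 lines 1 (CSPG4) rose and 0 fell. The shares of all tested genes are those given for the neuronal markers.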

How the data were processed

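Total RNA of 15 libraries was sequenced by a service provider, per the labels. The authors deposited expected counts, RSEM's estimate of the reads from each gene (file headers), with STAR, RSEM and hg38 named in the submitters' processing notes. The deposited TPM values are RSEM's abundances per transcript length, per the file headers. The deposited effective lengths are in another unit, bases, per the file headers. The tools' versions, the settings and the use of strand were not stated in the labels or headers. Of 58813 entries per table, 58721 matched GENCODE release 29, and 92 spike-in entries (at most 3.65e-05% of a library) were left out.

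After rounding to integers, expected counts went into edgeR 4.0.16 (R 4.3.3), quasi-likelihood, with TMM factors (0.983 to 1.014) and 1 coefficient per line. The filter filterByExpr with a minimum count of 10 left 14961 genes, with Benjamini-Hochberg adjustment across them in each of 9 comparisons, with a threshold of 0.05. SEs come from the fitted information scaled by the quasi-likelihood dispersion. The code was tested on simulated data. Alternatives included DESeq2 1.42.0. Replicate pairs all differed by more than counting noise (chi-square per gene of 2.46 or more).

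The genes and lists were chosen with earlier results of these data known. Genes named beyond the 8 are CD4, up to 4 examples with the smallest p per family list (KCNJ8 and KRTAP2-3 among them), tested neighbours within 100 kb, and the 3 genes most alike by r. Genes that share sequence and cell type markers are named besides. The named markers are not all those with the smallest p of their lists. SERTAD1 against no activation domain, and the hair keratins, were singled out after their values were seen.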

Additional observations from a re-analysis of the deposited data

How the results depend on the processing

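Of 1041 values of the 8 genes under the alternatives, 1028 kept their side of the threshold, 6 lost a call, 7 gained 1 and 0 reversed a call, and the exceptions stand beside each gene above except ESM1 in VP64 with guides against no activation domain, which also passed with no low-count filter (-0.28, adjusted p = 0.0108). The 1041 values include guides against no guides in both arms, which chose the genes, and the difference of those effects. Calls there follow from the choice, so the 1028 does not measure support for the genes. The calls lost or gained with a library left out rest on fewer samples. Low counts limit RIMS1, ABCC9, GALNTL6 and KRTAP4-8, whose SEs reach 0.651.

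Over all genes, the number called between p65 and VP64 without guides was 315, and it was 545 with no low-count filter, 109 with the effective-length offset and 185 to 301 with a library left out. With guides that number was 1185, and it was 437 with the offset, 706 from only the libraries compared and 681 to 1129 with a library left out. The guide effects of the arms differed for 143 genes, 360 with no filter, 31 with the offset, 247 by DESeq2 and 91 to 176 with a library left out. Guides against none with p65 gave 5823 genes and 3851 with the offset. The causes were not tested.

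The replicate letters share only a letter: none of 30 same-letter pairs had deviations from the line means correlated above 0.1 (r from -0.073 to 0.064). With the letter as a replicate block, guides against none gave 5917 genes with VP64 (6074 without the block) and 5667 with p65.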
